A study of Homo sapiens with 6 samples.

Results

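The MSI2 locus was examined as the interval of hg19 chromosome 17 from 55.0 to 56.0 Mb, with MSI2 itself placed at 55.333 to 55.757 Mb, a span of 424 kb. Its members were chosen by position, from interval lists whose results were already known, and were all listed NeuroD1 and H3K4me3 regions that touched the interval. They numbered 79 of the 61250 distinct regions in the 4 lists. H82 contributed 15 NeuroD1 and 16 H3K4me3 regions, and H524 contributed 41 NeuroD1 and 7 H3K4me3 regions. H82 and H524 are established human small cell lung cancer cell lines, grown here without treatment, and each was profiled by chromatin immunoprecipitation sequencing with 1 antibody against NeuroD1 and 1 against H3K4me3. An input library of each line was not analysed here. With 1 library per antibody and line there was no spread between replicates, so differences between H82 and H524 are described without a test. Read depth is not given in the lists and is unknown, and intervals on shares are exact Clopper-Pearson 95% intervals that cover counting error only.

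MSI2 encodes Musashi-2, an RNA-binding protein that binds the messages of target genes and changes their translation. It is known for its roles in stem and progenitor cells of blood and in leukaemia, and it belongs to a family first studied in neural cells. NeuroD1, a factor of the basic helix-loop-helix family that drives neuronal and endocrine genes, pairs with a partner protein to bind short DNA motifs called E-boxes. It marks a subtype of small cell lung cancer. H3K4me3 is a histone modification found at active promoters. In the RefSeq gene order the protein-coding neighbours before MSI2 are SCPEP1 and AKAP1, and those after it are CCDC182 and MRPS23. This order comes from another build, GRCh38.p14, so regions were not assigned to neighbouring genes.

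The MSI2 promoters are shown because H3K4me3 of both lines was listed close to the start of the gene. RefSeq gave 2 starts on the plus strand in build GRCh38.p14, each printed from 250 bases before to 50 bases after the start, and these windows were not placed in hg19. Capitals mark E-boxes of the form CANNTG, which read the same form on both strands.
Promoter 1, chr17:57255601-57255900: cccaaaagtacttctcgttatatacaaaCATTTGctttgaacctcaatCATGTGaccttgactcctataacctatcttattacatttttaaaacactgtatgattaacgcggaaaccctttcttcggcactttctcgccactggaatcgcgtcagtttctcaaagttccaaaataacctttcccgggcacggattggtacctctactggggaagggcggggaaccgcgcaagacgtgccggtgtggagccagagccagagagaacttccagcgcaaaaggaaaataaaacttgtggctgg
Promoter 2, chr17:57256769-57257068: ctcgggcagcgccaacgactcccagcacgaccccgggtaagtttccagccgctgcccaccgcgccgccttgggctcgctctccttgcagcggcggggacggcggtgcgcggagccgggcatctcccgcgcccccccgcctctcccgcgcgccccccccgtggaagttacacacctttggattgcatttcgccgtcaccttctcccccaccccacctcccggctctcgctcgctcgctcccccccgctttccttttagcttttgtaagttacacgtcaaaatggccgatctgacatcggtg
The first promoter held 2 E-boxes, CATTTG at base 29 and CATGTG at base 49 of the window, and the second held 0. Of 35116 RefSeq promoters of 300 bases, 68.7% held at least 1 CANNTG. Neither MSI2 promoter held CAGATG, its reverse complement CATCTG or CAGCTG, all of the CANNTG form, and 29.8% of all promoters held at least 1 of them. The first promoter had 15 CG pairs and a G and C content of 46.3%, and the second had 34 CG pairs and 67.7%. At least as many CG pairs were found in 48.9% of all promoters for the first and in 15.6% for the second.

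NeuroD1 was listed more often at the locus in H524, and H3K4me3 more often in H82. The locus held 15 NeuroD1 regions covering 7.01 kb in H82 and 41 regions covering 37.6 kb in H524. The H82 to H524 ratio of NeuroD1 regions was 0.366 at the locus and 0.187 over the whole lists of 3854 and 20593 regions. The locus therefore took a larger part of the shorter H82 list, 0.389% of its regions (0.218 to 0.641), than of the H524 list, 0.199% (0.143 to 0.270), with overlapping intervals. With the H524 list limited to its highest-scoring regions, as many as the H82 list had, the locus held 15 NeuroD1 regions in H82 and 14 in H524. Inside MSI2 the counts were then 11 in H82 and 9 in H524. The higher NeuroD1 count of H524 was thus not seen at equal list length. For H3K4me3 the whole lists were close in length, with 18208 regions in H82 and 18595 in H524. The locus held 16 of them covering 9.44 kb in H82 and 7 covering 5.39 kb in H524. This was 0.0879% of the H82 list (0.0502 to 0.143) and 0.0376% of the H524 list (0.0151 to 0.0775), with overlapping intervals.

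The locus was dense in NeuroD1 in both lines. The genome was cut into 1 Mb windows, of which 2751 held a region of any list. The MSI2 window had rank 4 by NeuroD1 count in H82 and rank 9 in H524, against medians over all windows of 1 region in H82 and 6 in H524. It was 1 of 2 windows that reached both 15 NeuroD1 regions in H82 and 41 in H524. The interval was chosen with these lists known, so its ranks describe it and are not a test of it. On chromosome 17 alone, with 79 windows, its rank was 2 in H82 and 5 in H524. The H3K4me3 counts did not stand as high, with rank 236 of 2751 in H82 and rank 869 in H524. The window before it, from 54 Mb, held 0 NeuroD1 regions in H82 and 6 in H524. The window after it, from 56 Mb, held 8 in H82 and 22 in H524. The share of windows with as many regions depended on which part of the locus the moved MSI2 window kept. Moved 500 kb upstream, it held the H82 NeuroD1 region 55483793 to 55484152 but ended before 55580405 in H82 and 55538398 in H524. It thus left out most NeuroD1 regions of the locus by construction. Moved downstream, it kept those regions. With windows moved 500 kb upstream, 55.8% of windows had at least as many NeuroD1 regions as the moved MSI2 window in H82 and 42.8% in H524. On the first grid these shares were 0.145% and 0.327%. With windows moved 500 kb downstream they were 0.0725% in H82 and 0.254% in H524.

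**Figure D1:**
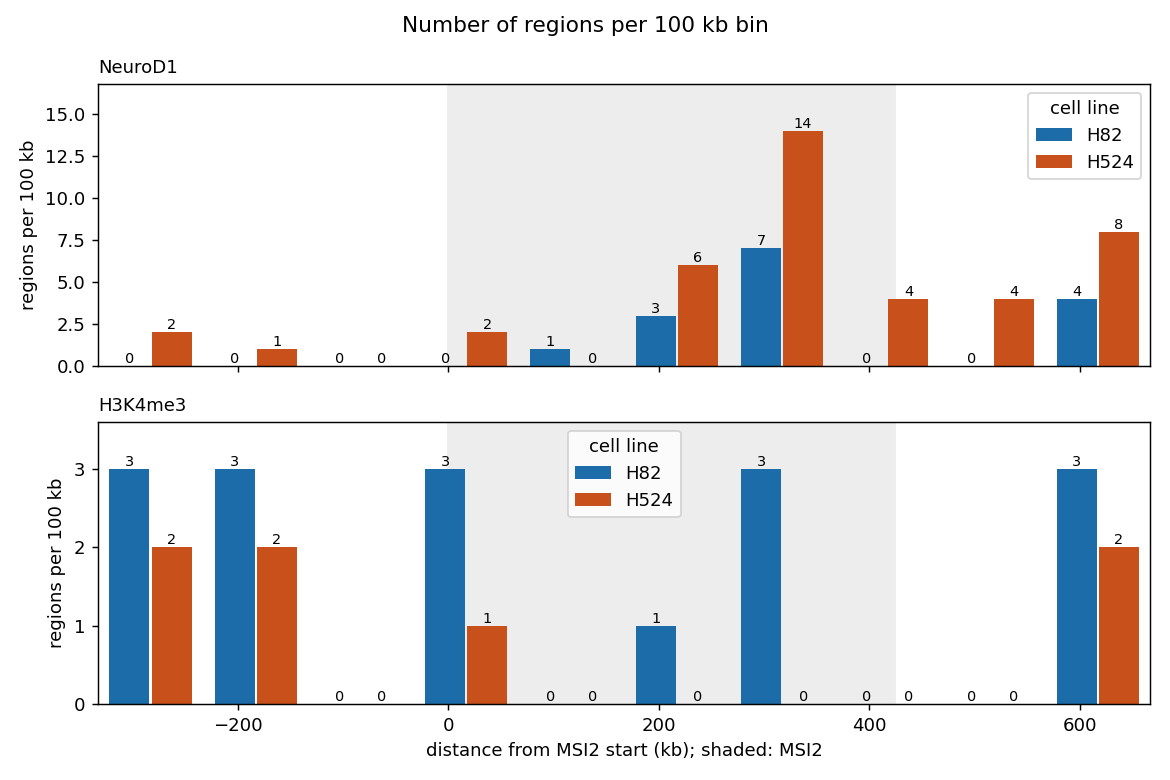
Number of listed regions per 100 kb bin against distance from the MSI2 start in kb, for NeuroD1 (top) and H3K4me3 (bottom), with H82 bars left of H524 bars in each bin and MSI2 shaded. The bin beginning 267 kb into MSI2 holds 7 NeuroD1 regions in H82 and 14 in H524, and 3 H3K4me3 regions in H82 against 0 in H524.

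Within MSI2, NeuroD1 was concentrated well past the start of the gene in both lines. Of the 11 H82 NeuroD1 regions inside MSI2, the 4 equal parts of the gene held 0, 1, 8 and 2 in the direction of transcription. Of the 25 H524 regions inside it, they held 2, 1, 14 and 8. The first part, 106 kb long, thus held no NeuroD1 of H82 and 2 regions of H524. Among 100 kb bins over the genome, the bin from 267 kb into the gene had rank 4 of 15283 in H82 with 7 NeuroD1 regions, and rank 9 in H524 with 14. These ranks, too, only describe an interval chosen with the lists known. The bin just before the one from 267 kb held 3 NeuroD1 regions in H82 and 6 in H524. Past the end of MSI2 H82 had 4 NeuroD1 regions and H524 had 13. Before the start of MSI2 H82 had 0 and H524 had 3. Position and score are drawn together in the map of the locus. There and below, regions were ranked by the authors' score inside their own list, and the percentile is the percentage of regions of that list with a lower score. H82 had no listed NeuroD1 region for 1925 kb up to its first region in MSI2, a stretch in which H524 had 16.

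**Figure D2:**
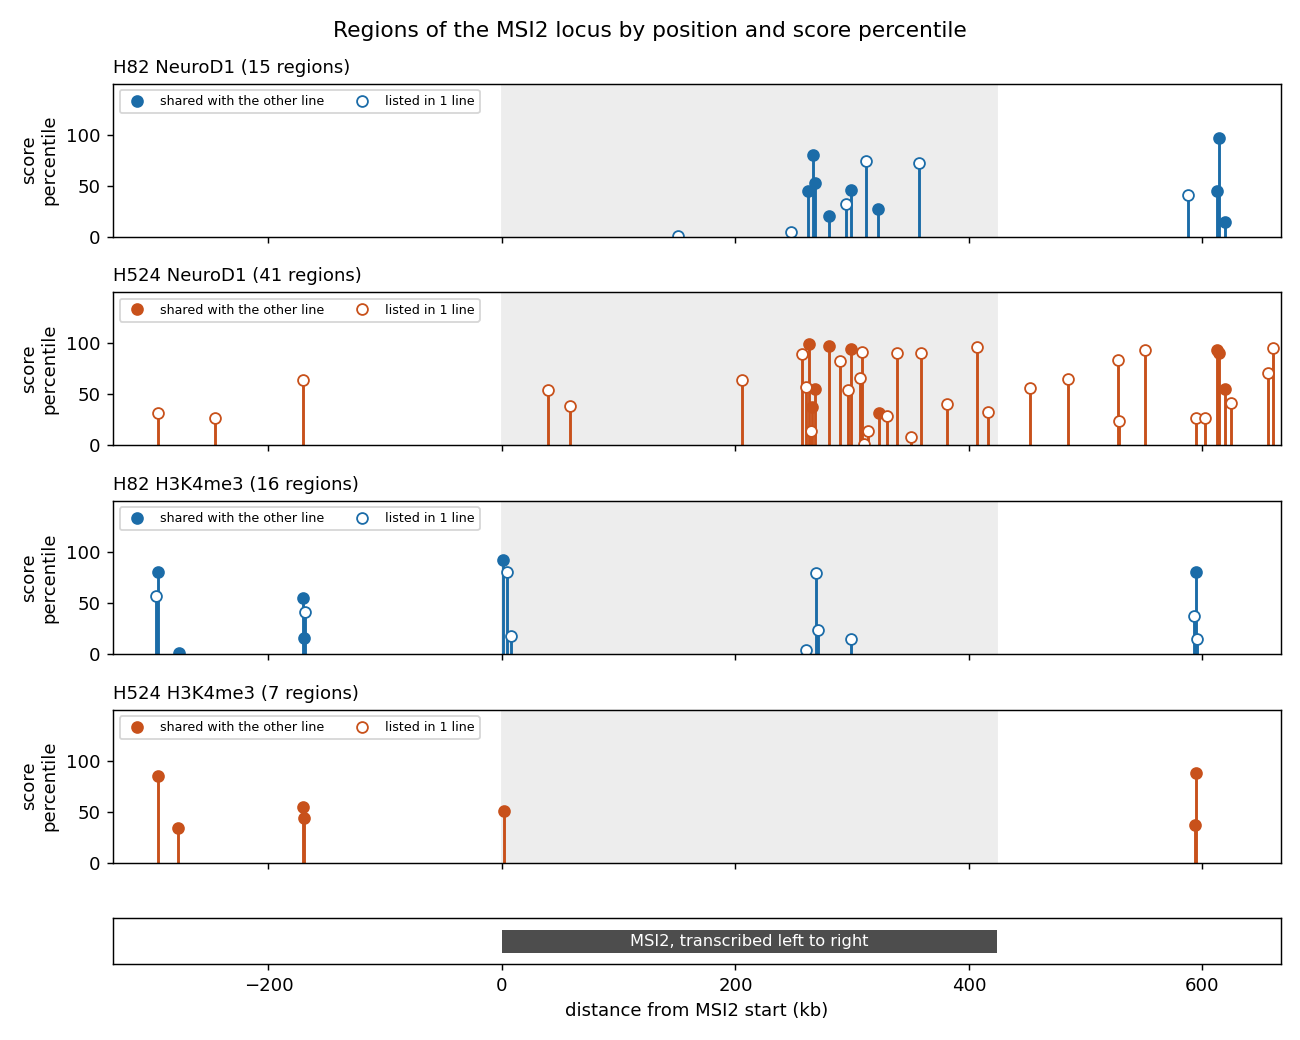
Position of each region as distance of its midpoint from the MSI2 start in kb, against its score percentile in its own list, with 1 panel per list, MSI2 shaded and drawn to scale in the lowest panel. Filled circles are regions that overlap one of the same antibody in the other line. NeuroD1 of both lines gathers past 240 kb into MSI2 and again near 613 kb, and H3K4me3 regions at 261 to 299 kb appear in H82 only.

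The 11 H82 NeuroD1 regions in MSI2 ranged from percentile 0.701 to 80.3, and 4 of them scored no lower than the H82 list's median. The first, 55483793 to 55484152, lay 151 kb into the gene at percentile 0.701, and the second, 55580405 to 55580873, lay 248 kb in at percentile 4.72. Both were close to the lowest scores of the list and neither was shared with H524. A group of 3 followed within 6.54 kb, at 55595273 to 55595925, 55598911 to 55599272 and 55601226 to 55601810, with percentiles of 44.3, 80.3 and 52.8. The middle one of these had the highest H82 NeuroD1 percentile within MSI2, and all 3 were shared with H524. The region at 55612962 to 55613243 had percentile 20.5. Next came 55627621 to 55628359 at percentile 31.8 and 55631645 to 55631985 at percentile 45.8. The widest H82 NeuroD1 region of the locus, 55644467 to 55645467, spanned 1001 bp at percentile 74.1 and had 2 summits, local maxima that the lists give as separate entries of the same interval. It was not shared, and the nearest H524 NeuroD1 region was 1.04 kb away. The last in the gene were 55655186 to 55655465 at percentile 27.3 and 55689663 to 55690157 at percentile 72.6. Past the gene, H82 listed 55920784 to 55921175 at percentile 41.2. It was followed by a group of 3 within 7.11 kb, at 55945642 to 55945936, 55947288 to 55947765 and 55952475 to 55952749, with percentiles of 45.0, 96.3 and 14.3. The middle region of this group had rank 139 of 3854 with a score of 13.6 and was the highest-scoring H82 NeuroD1 region of the locus.

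Among the first 1000 ranks of each list, MSI2 held 2 NeuroD1 regions of H82 and 3 of H524. These ranks are a larger part of the 3854 regions of H82 than of the 20593 of H524, so the cutoffs are unlike. The highest of H524 at the locus, 55595051 to 55596857, lay 263 kb into the gene, was 1807 bp wide with 3 summits, scored 44.2 and had rank 76 of 20593. It contained the whole H82 region 55595273 to 55595925, which had rank 2142 of 3854 with a score of 3.27. Ranks 567 and 680 were also inside MSI2, at 55612749 to 55613251 and, near the end of the gene, at 55739693 to 55740652. The first of this pair contained an H82 region, whereas the second was 49.5 kb from any. Rank 864 went to the widest region of the locus, 55991089 to 55995951 beyond the gene, with 4863 bp and 6 summits. It was not shared, and 55630973 to 55632357 inside the gene, with rank 1111, was. Ranks 1281 and 1313 lay beyond the gene at 55945587 to 55946357 and 55883482 to 55885132. The remaining 3 of the 10 highest were 55641026 to 55642040 with rank 1731, 55946904 to 55947766 with rank 1879 and 55691858 to 55692729 with rank 1925. Of the 10 highest-scoring H524 regions 6 were inside MSI2 and 4 beyond it, and 5 were shared with H82. At or above percentile 90 of its own list H82 had 1 of 15 regions and H524 had 11 of 41. With both lists at the H82 length the counts were 1 of 15 in H82 and 1 of 14 in H524. Percentile 90 is a stricter bar in the H524 list cut to its highest scores. What made the contrast was not tested.

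Inside the gene H524 had 2 runs of at least 6 closely spaced NeuroD1 regions. With neighbours under 10 kb apart joined, 6 regions lay between 55589237 and 55601455, a span of 12.2 kb, and 11 regions lay between 55612749 and 55672037, a span of 59.3 kb. Of 15188 such runs in H524, single regions included, 13 (0.0856%) had at least 11 regions. The longest run in H82 inside MSI2 had 3 regions, from 55595273 to 55601810, and 64 of its 3444 runs (1.86%) had at least as many. The H524 list is the longer, and runs were not counted at equal list length. The gap was set after the lists had been seen. With 5 kb the longest run inside MSI2 had 3 regions in H82 and 6 in H524, and with 20 kb it had 9 in H82 and 19 in H524.

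**Figure D3:**
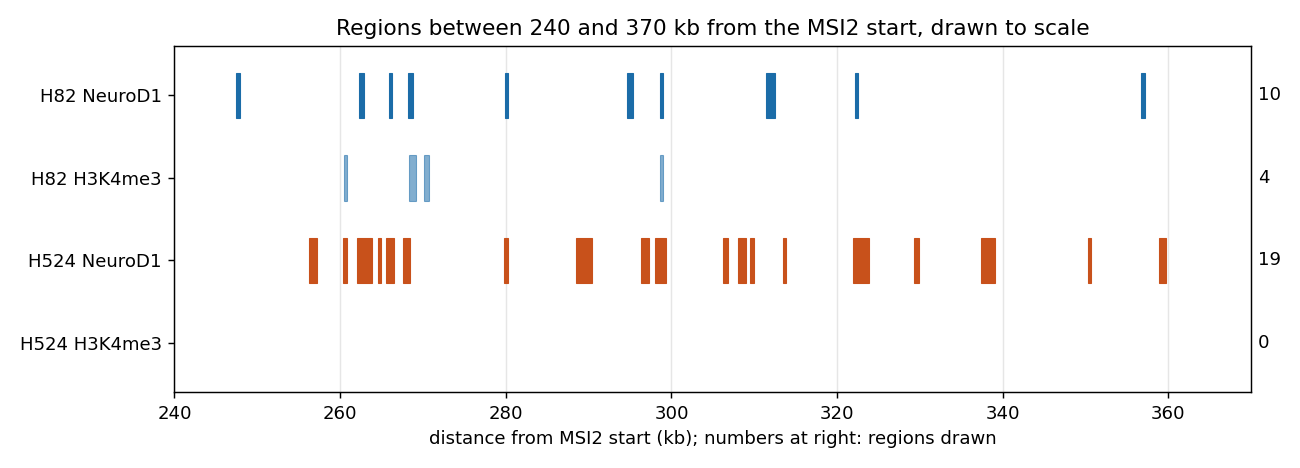
Regions between 240 and 370 kb from the MSI2 start, drawn to scale as bars along the distance axis in kb, 1 row per list, with the number of regions at the right. There were 10 NeuroD1 and 4 H3K4me3 regions in H82, and 19 NeuroD1 and 0 H3K4me3 regions in H524.

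NeuroD1 regions of H82 at the locus had a counterpart in H524 at about the share of the whole list. Of the 15 H82 regions, 9 overlapped an H524 NeuroD1 region by at least 1 bp (60.0%, 32.3 to 83.7), against 53.6% of the H82 list. At equal list length 5 of the 15 did (33.3%), and at scores at or above the list medians 2 of 5 did. Of the 41 H524 regions, 9 overlapped H82 (22.0%, 10.6 to 37.6), against 9.98% of the H524 list and 14.4% of its regions on chromosome 17. At equal list length the H524 share was 5 of 14 (35.7%). With scores at or above the list medians it was 2 of 25 (8%). Shares over the whole lists were not computed at these settings, so those given are for the uncut lists only. Inside MSI2 6 of 11 H82 regions and 6 of 25 H524 regions were shared, and past its end 3 of 4 and 3 of 13 were. The 6 H82 regions without a counterpart were not all far from H524 NeuroD1. For 3 of them the nearest H524 region was between 0.954 and 1.70 kb away, and for the others it was 6.01, 8.36 and 54.2 kb away.

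Shared NeuroD1 regions were wider in H524 in all 9 pairs, and 8 of the H82 regions lay wholly inside their H524 counterpart. The exception was the H82 region 55601226 to 55601810, of which 39.3% was covered. Among shared regions the width had a median of 341 bp in H82 against 907 bp in H524, with a median H82 to H524 ratio of 0.379. Over the whole lists the H524 region was the wider in 71.8% of 2077 pairs, with a median ratio of 0.730. The score percentile was higher in H524 in 7 of the 9 pairs, against 63.3% of pairs over the whole lists. By plain rank H82 was the higher in 5 pairs and H524 in 4. Plain ranks run to 3854 in H82 and 20593 in H524, so by construction they favour H82 at an equal percentile. At an equal plain rank the percentile in turn favours H524, the longer list. What set the direction was not tested. Of the pairs with the higher percentile in H524, the 4 furthest apart had H82 percentiles of 20.5, 44.3, 45.0 and 45.8. Their H524 counterparts had 97.2, 99.6, 93.8 and 94.6. The opposite was seen at 55598911 to 55599272, with percentile 80.3 in H82 and 38.03 in H524. At 55947288 to 55947765 both were high, with percentile 96.3 in H82 and 90.7 in H524.

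**Figure D4:**
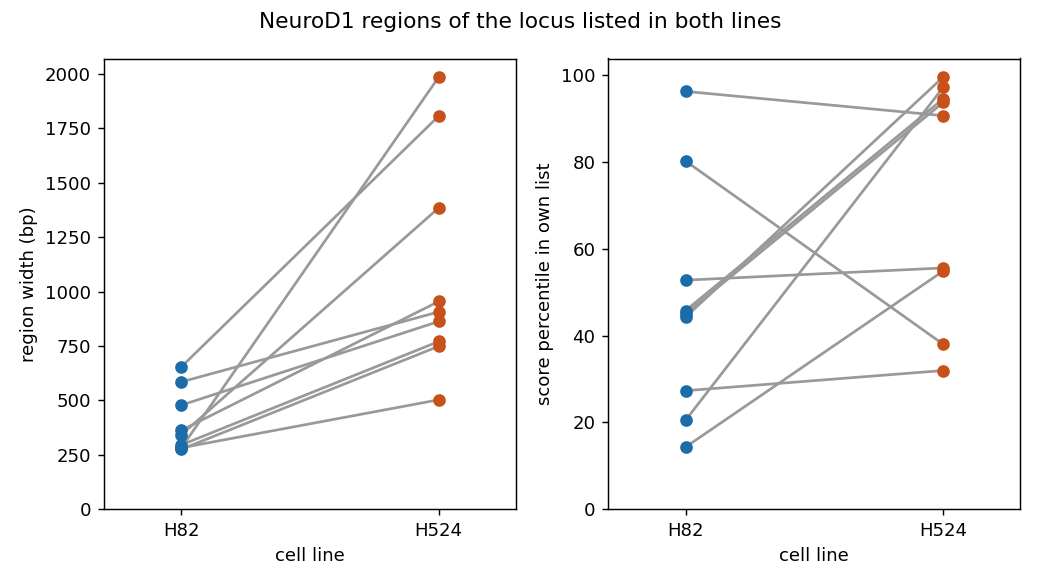
Width in bp (left) and score percentile in the own list (right) of the 9 NeuroD1 regions of the locus listed in both lines, with H82 left of H524 and lines joining the members of a pair. All 9 are wider in H524, and the percentile is higher in H524 in 7 pairs and lower in 2, whereas by plain rank H524 is the higher in 4.

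H3K4me3 of both lines was listed close to the start used for MSI2, and H82 had further regions just behind. Which of the RefSeq starts lay nearest was not determined, since they were not placed in hg19. The H82 region 55333968 to 55334388 began 0.967 kb after the start used for MSI2, a position given to the nearest kb. It scored 8.69 and had rank 1505 of 18208, at percentile 91.7, the highest of the H82 H3K4me3 regions at the locus. The H524 region 55334235 to 55335078 scored 3.66 at percentile 50.4 and was 844 bp wide with 2 summits. Both regions shared 154 bp, so the listed interval lay further into the gene in H524. H82 alone also had 55336576 to 55337362 at percentile 80.7 and 55340232 to 55340674 at percentile 17.9, and the H524 mark nearest to them was 1.497 and 5.15 kb away. No NeuroD1 region lay near this mark. The nearest was 149 kb from the first H82 region in H82 and 36.4 kb from the H524 region in H524.

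Deep inside MSI2, H3K4me3 was listed in H82 alone. H82 had 4 regions there, 55593510 to 55593804 at percentile 3.43, 55601290 to 55602197 at percentile 79.3, 55603070 to 55603677 at percentile 23.9 and 55631635 to 55631952 at percentile 14.3. The second had 908 bp and 2 summits and was the only region among the 4 above percentile 50. H3K4me3 regions of H82 without an H524 counterpart were common, with 8673 of 18208 over the whole list and 6 of 7 inside MSI2. Past its region near the MSI2 start H524 had no H3K4me3 region for 591 kb. This stretch was touched by 8 H3K4me3 regions of H82, 12 NeuroD1 regions of H82 and 30 NeuroD1 regions of H524. The last of the 8, 55926445 to 55928235, only reached into the end of the stretch and overlapped H3K4me3 of H524 beyond it. Of the 7 H82 regions in MSI2, 5 had a score of at least 2 and 3 scored no lower than the list's median, while H524 had 1 in MSI2 under both settings.

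NeuroD1 of H82 overlapped 2 of these 4 intragenic H3K4me3 regions. The H82 NeuroD1 region 55601226 to 55601810 overlapped the H3K4me3 region 55601290 to 55602197, and 55631645 to 55631985 overlapped 55631635 to 55631952. Both sites also carried NeuroD1 of H524, at 55600549 to 55601455 and 55630973 to 55632357, without H3K4me3 of H524. Another H82 H3K4me3 region, 55593510 to 55593804, overlapped the H524 NeuroD1 region 55593368 to 55593795, and no H82 NeuroD1 region touched it. The H82 NeuroD1 region closest to it was 1.47 kb away. Thus 2 of the 15 H82 NeuroD1 regions of the locus overlapped H3K4me3 of H82 (13.3%, 1.66 to 40.5), against 29.4% of the H82 list. At scores of at least 2 it was 1 of 12, since the H3K4me3 region at 55631635 scored 1.88. The share over the whole list was not computed at that threshold. Without that threshold, 0 of 15 overlapped H3K4me3 of H524 (upper bound 21.8%), against 15.9% of the H82 list. Of the 16 H82 H3K4me3 regions 2 overlapped NeuroD1 of H82 (12.5%, 1.55 to 38.3), against 6.34% of that list.

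In H524 NeuroD1 and H3K4me3 met outside the gene. None of the 25 NeuroD1 regions of H524 inside MSI2 overlapped H3K4me3 of H524 (upper bound 13.7%), while 3 of the 25 overlapped H3K4me3 of H82. At the locus 3 of 41 H524 NeuroD1 regions overlapped H3K4me3 of H524 (7.32%, 1.54 to 19.9), against 16.0% of the list, and 6 of 41 overlapped H3K4me3 of H82 (14.6%, 5.57 to 29.2), against 15.6%. The 3 were 55038057 to 55038412 and 55162168 to 55162604 before MSI2, at percentiles 32.0 and 64.3, and 55927189 to 55927608 after it, at percentile 27.1. H82 listed no NeuroD1 at these places. Seen from the mark, NeuroD1 of H524 overlapped 3 of the 7 regions that carried H3K4me3 in H524 (42.9%, 9.90 to 81.6), against 18.0% of the list. The distance from NeuroD1 to H3K4me3 of the same line restates the stretch of 591 kb without H3K4me3 of H524. Inside MSI2 the median distance came to 9.28 kb in H82 against 263 kb in H524. Over the whole lists these medians were 10.6 kb for H82 against 40.4 kb for H524. Over 50 kb away were 2 of 11 H82 regions and 24 of 25 H524 regions inside MSI2, against 31.6% of the H82 list and 45.7% of the H524 list.

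Outside MSI2 the H3K4me3 of both lines lay in the same places. Every one of the 7 H524 regions, the one in MSI2 included, overlapped H3K4me3 of H82 (lower bound 59.0%), against 52.9% of the H524 list. It was 6 of 7 (85.7%) at scores of at least 2, and also with 50% of the shorter region covered. List shares were not computed at these settings. Of the 16 H82 regions 6 overlapped H524 (37.5%, 15.2 to 64.6), against 52.4% of the H82 list. Farthest before MSI2 among the shared ones, H82 had 55037906 to 55038379 at percentile 80.6 and H524 had 55037946 to 55038350 at percentile 85.0. Next, H82 had 55055722 to 55056272 at percentile 0.758, almost the lowest score of its list, and H524 had 55054952 to 55056306 at percentile 34.1, the widest H524 H3K4me3 region of the locus with 1355 bp. Closer to MSI2, 55162139 to 55162947 and 55163271 to 55163916 of H82 overlapped 55161907 to 55162947 and 55163238 to 55163694 of H524. Their percentiles were 54.5 and 15.5 in H82, and 54.8 and 43.5 in H524. At 594 kb past the start, the widest H82 region, 55926445 to 55928235 with 1791 bp and percentile 80.4, overlapped the H524 regions 55926473 to 55927395 and 55927670 to 55928035 at percentiles 37.0 and 87.8. The 4 H82 regions outside MSI2 with no counterpart lay within 1.13 kb of H3K4me3 of H524. Among the 7 overlapping H3K4me3 pairs the H524 region was wider in 3 and of higher percentile in 5, against 41.9% and 49.1% of 10588 pairs over the whole lists.

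NeuroD1 regions of the locus were wider in H524 by their median, and the ranges overlapped. The median NeuroD1 width was 392 bp (275 to 1001) in H82 against 749 bp in H524 (285 to 4863). Over the whole lists it was 416 bp for H82 and 470 bp for H524. More than 1 summit was listed for 2 of 15 H82 regions, against 5.71% of the H82 list, and for 17 of 41 H524 regions, against 12.1% of the H524 list. The median NeuroD1 percentile was 44.3 in H82 (0.701 to 96.3) against 56.5 in H524 (0.855 to 99.6), so that the ranges overlapped almost fully. The H3K4me3 median was 459 bp (271 to 1791) in H82 against 844 bp in H524 (366 to 1355). Over the whole lists it was 563 bp for H82 and 526 bp for H524. More than 1 summit was listed for 2 of 16 H82 and 2 of 7 H524 regions, against 22.4% and 19.7% of the lists. The median H3K4me3 percentile was 39.1 in H82 and 50.4 in H524.

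**Figure D5:**
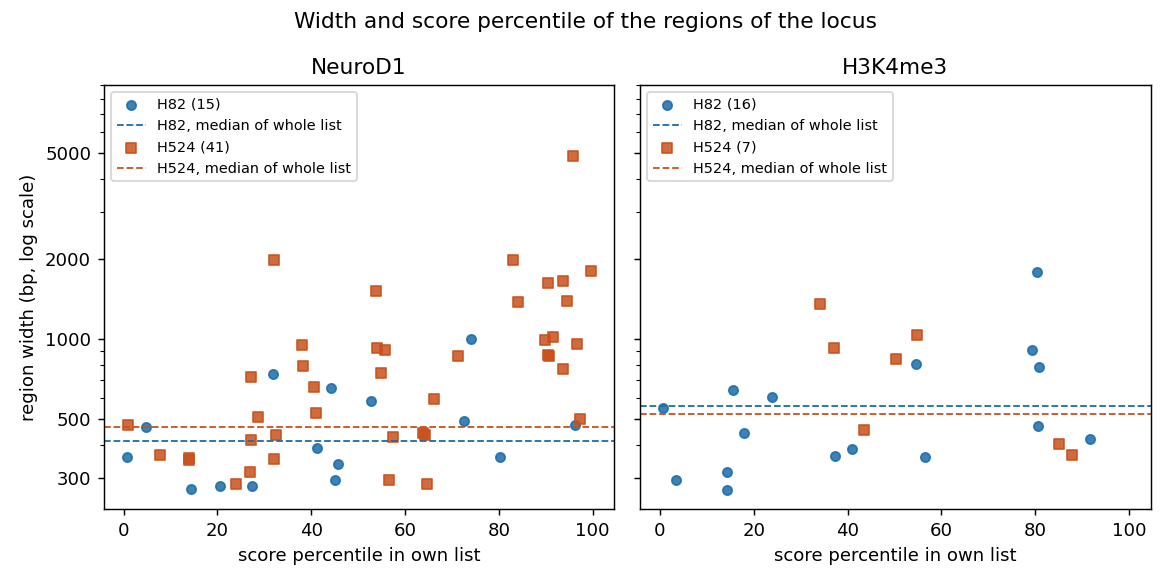
Width in bp (log axis) against score percentile in the own list for the NeuroD1 (left) and H3K4me3 (right) regions of the locus, with circles for H82, squares for H524 and dashed lines at the median width of each whole list. The widest NeuroD1 region has 1001 bp in H82 against 4863 bp in H524, and the NeuroD1 percentiles of both lines span nearly the whole axis. The H3K4me3 percentiles run from 0.758 to 91.7 in H82 and from 34.1 to 87.8 in H524.

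At the later bound of the interval NeuroD1 went on in both lines. Just beyond 56.0 Mb, NeuroD1 was listed at 56002831 to 56003182 in H82, at percentile 88.3, and at 56002743 to 56003181 in H524, at percentile 98.5. The last NeuroD1 regions inside ended 47.3 kb before this bound in H82, at percentile 14.3, and 4.05 kb before it in H524, at percentile 95.8. At 55.0 Mb the nearest H3K4me3 regions outside ended 8.20 kb before the bound in H82, at percentile 88.7, and 7.26 kb before it in H524, at percentile 64.0. The first H3K4me3 regions inside began 36.5 kb after it in H82, at percentile 56.5, and 37.9 kb after it in H524, at percentile 85.0. At the end of MSI2 the last NeuroD1 region inside lay 66.8 kb from the bound in H82 and 7.36 kb from it in H524, and the first outside lay 164 kb and 28.4 kb from it in H82 and H524.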

How the data were processed

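Peak lists of 4 libraries were used, 1 per antibody (NeuroD1, H3K4me3) and line (H82, H524), grouped by the labels. The submitters' processing notes name Trimmomatic 0.38, Bowtie 1.1.2, SAMtools 1.9, Picard 1.118 and MACS2 2.1.1 and build hg19; how these were set, and how the 2 input libraries entered, is not stated in the labels. From its values, the deposited score was taken as a −log10 adjusted p-value, since the lowest in the lists, 1.304, was just above 1.301, the value for 0.05. Scores served only to rank regions within a list. Identical intervals were merged into 1 region with the highest score. Coordinates are 1-based. Overlap meant at least 1 shared bp. Depth is unknown, so lists were not adjusted for it. Analyses ran in Python 3.11.15 with pandas 2.3.3, numpy 2.4.6 and scipy 1.17.1; matplotlib 3.10.9 drew the figures. The overlap counting was tested on simulated data.

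The interval, the alternatives and the regions named were chosen with earlier results of these data known. Named were all H82 NeuroD1 regions, the 10 highest-scoring H524 NeuroD1 regions, regions shared or overlapping the other antibody, H3K4me3 within 5 kb of MSI2, and the widest region of each list. The alternatives changed the score threshold, list length, merging, bounds, overlap rule and window grid. An hg19 genome sequence and annotation were not used here.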

Additional observations from a re-analysis of the deposited data

Results flagged for a closer look

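By region count the lines differed in opposite directions under the antibodies, and this turned when list length was taken into account. At the locus the log2 ratio of H82 to H524 regions was −1.45 for NeuroD1, with 15 in H82 and 41 in H524, and 1.19 for H3K4me3, with 16 in H82 and 7 in H524, which is a difference of −2.64. Inside MSI2 the ratios were −1.18 for NeuroD1, with 11 and 25 regions in H82 and H524, and 2.81 for H3K4me3, with 7 and 1, a difference of −3.99. As a share of each list the log2 ratio was 0.97 for NeuroD1 and 1.22 for H3K4me3, higher in H82 for both. At equal list length NeuroD1 had 15 regions in H82 and 14 in H524 at the locus, and 11 and 9 inside MSI2. Neither difference was tested, since each list is 1 library. The NeuroD1 lists held 3854 regions in H82 and 20593 in H524.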

How the results depend on the processing

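Of 109 alternative values for 31 results, 33 moved, by over 1.5 times for counts or out of the counting interval for shares, and 76 did not; the causes were not tested beyond what each setting does by construction. The intervals of shares are wide: the share of H82 NeuroD1 regions with a counterpart, 60%, was 33.3% at equal list length and 40% at scores at or above the list median, and that of H82 H3K4me3, 37.5%, was 57.1% at such scores. At scores at or above the list median the NeuroD1 count was 5 in H82 and 25 in H524 at the locus and 4 and 15 inside MSI2, and the H3K4me3 count was 7 in H82 and 4 in H524 at the locus, and 3 in H82 inside MSI2. The NeuroD1 share of H524 shared with H82 was then 8%. Shares over the whole lists were not computed under these settings. At equal list length H524 had 14 NeuroD1 regions at the locus and 9 inside MSI2, and 0% of them overlapped H3K4me3 of H524. Counting each deposited entry gave 67 and 41 NeuroD1 entries of H524 at the locus and inside MSI2, and 2 H3K4me3 entries of H524 inside MSI2. The bounds of MSI2 alone gave 25 NeuroD1 regions of H524, and 7 and 1 H3K4me3 regions of H82 and H524. Extending the interval by 500 kb on each side gave 38 H3K4me3 regions in H82 and 28 in H524. The share of 1 Mb windows with as many regions became, with windows moved upstream, 55.8% for H82 NeuroD1, 42.8% for H524 NeuroD1 and 12.4% for H524 H3K4me3. The MSI2 window moved upstream ended before the part of the gene dense in NeuroD1. With windows moved downstream it became 4.79% for H82 H3K4me3 and 12.4% for H524 H3K4me3. For NeuroD1 the downstream move gave 0.0725% in H82 and 0.254% in H524, which did not count as moved. On chromosome 17 alone the share of windows was 2.53% for H82 NeuroD1, 6.33% for H524 NeuroD1, 43.0% for H82 H3K4me3 and 72.2% for H524 H3K4me3. The gap that joins neighbouring regions into runs was varied, and plain ranks and percentiles at equal length were added, after seeing the data: H524 regions at or above percentile 90 fell in number to 1, against 11, and NeuroD1 pairs with the higher rank in H524 to 4, against 7. No paired analysis was possible because each antibody and line has 1 library and no result comes from a test. Depth is unknown, so how far the length of each list follows it was not tested.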
